A study of Arabidopsis thaliana with 30 samples.

Results

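Rosette leaves of the Arabidopsis thaliana catalase mutant cat2-1 were set against those of the wild type Col-0 after 2 days in air under short days. The comparison used 3 cat2 arrays and 3 Col-0 arrays, which are 6 of the 30 arrays of the series, and all 22746 probe sets that are not controls, of 22810 on the array. Both genotypes had spent 5 weeks in soil at 3000 ppm CO2 with 8 h of light and 16 h of dark, and kept that day length when the CO2 was lowered to 400 ppm. Leaves were taken 7 h into the light period, and every array carried RNA pooled from a pair of leaves of different plants. The mutant was represented by 1 line, cat2-1. The other 8 groups were the same genotypes left at 3000 ppm CO2, after 4 days of air in short days, and after 2 or 4 days of air in long days of 16 h light, and they were used here for the shared estimate of spread and for comparison. The treatment label of the Col-0 arrays that stayed at high CO2 reads 300 ppm where the growth description reads 3000 ppm, and the growth description was followed.

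Catalase breaks down hydrogen peroxide inside peroxisomes, and in leaves much of that peroxide is made by photorespiration, when glycolate from the oxygenation reaction of Rubisco is oxidised. CAT2 is the main leaf catalase of Arabidopsis. High CO2 slows photorespiration, so that a plant lacking this enzyme makes little of the peroxide in high CO2 and more of it once it is moved to air.

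The arrays (Affymetrix ATH1) report each transcript as a log2 signal, and every value below is such a signal or a difference of log2 signals, cat2 minus Col-0. A difference was called where limma with Benjamini-Hochberg adjustment over all 22746 probe sets gave an adjusted p below 0.05, and "rose" and "fell" are used of called differences only. The value after ± is the standard error from the fit, and each group had 3 arrays. CAT2 itself could not be checked by name, because the annotation used here lists it on none of the 13513 probe sets with a single gene. Leaf antenna protein LHCB4.1 lay between 13.98 and 14.09 on all 6 arrays, though the 3 measured antenna genes differed by −0.28 to 0.21 between the genotypes. Of 38 gene lists 12, the mesophyll markers among them, had no probe set of their own.

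In all, 3225 probe sets were called, 14.2% of those tested, of which 1505 rose (6.62%) and 1720 fell (7.56%). The rises were the larger changes: their median was 0.67 against −0.45 for the falls, and 352 rises but only 67 falls reached 1 on the log2 scale. Beyond 2 there were 113 rises and 6 falls, and beyond 4 there were 17 rises. The arrays of cat2 and Col-0 did not overlap for 8050 probe sets (35.4%), 3398 of them higher in cat2 (14.9%) and 4652 lower (20.5%). Of the called probe sets, 707 that rose and 1065 that fell had a single gene, and 768 and 624 were not in the annotation and could not be named. Rises made up 46.7% of the calls as deposited and 34.7% after the median of every array was set to the same value, which moved the median difference of all probe sets to −0.10, against −0.04 as deposited. Further quantile normalization changed less, with rises at 44.8% of the calls and a median difference of −0.03. Rises and falls numbered 1505 and 1720 as deposited, 1243 and 2334 after median centring, and 1449 and 1783 after quantile normalization. The balance of rises and falls thus hung on which scaling was used.

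**Figure D1:**
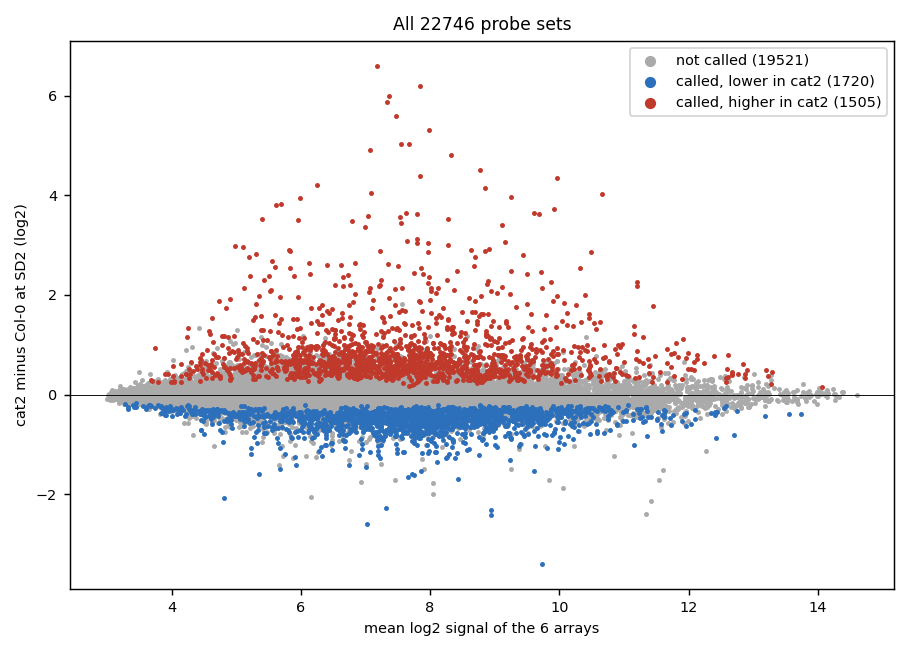
Difference between cat2 and Col-0 (log2, vertical axis) against the mean log2 signal of the 6 arrays (horizontal axis) for 22746 probe sets, with called rises in red, called falls in blue and the rest in grey. The 1505 rises reach up to 6.60, whereas of the 1720 falls 1 lies beyond −3.

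The 3 cat2 arrays did not differ from Col-0 to the same extent. Replicate 3 of cat2 lay nearest to the Col-0 mean for 71.6% of the rises and 62.8% of the falls, and for 83.5% of the rises of at least 1. On the first principal component, which held 67.6% of the variance of the 6 arrays, the cat2 arrays stood at −37.56, −34.07 and −17.84 and the Col-0 arrays at 27.47, 34.48 and 27.52. Control probe sets varied as well. The 25S ribosomal RNA control read 7.62, 8.09 and 6.96 in cat2 and 6.74, 7.13 and 6.24 in Col-0. The BioB spike-in read 7.94, 8.19 and 8.11 in cat2 and 8.29, 8.37 and 8.14 in Col-0, and the actin 3' minus 5' signal, a measure of RNA integrity, lay at 2.12 to 2.43 in cat2 and 1.96 to 2.15 in Col-0. Each of the 3 ranges overlapped between the groups, and with these measures as covariates 1897, 2041 and 2182 probe sets were called.

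Transcripts for chaperones of the heat shock response were among those that rose most. Small heat shock proteins hold unfolding proteins until chaperones of the HSP70 class refold them. The small heat shock protein gene AT5G51440 had the highest rise of any probe set with a single gene. Its signal was 10.66, 10.57 and 9.86 in cat2 leaves, against 4.33, 4.52 and 4.27 in Col-0 leaves. The groups lay far apart, with cat2 replicate 3 lowest in the mutant, and the difference of 5.99 ± 0.18 was a 63.7-fold gain (adjusted p = 4.7e-17). AT2G29500, of the cytosolic class of small heat shock proteins, gave 10.45, 10.16 and 9.52 in cat2 and 5.84, 5.22 and 5.92 in Col-0, a rise of 4.38 ± 0.32. AT1G53540, of the same class, gave 7.91, 6.79 and 5.97 in cat2 and 4.13, 4.34 and 4.18 in Col-0, a rise of 2.67 ± 0.31. All 3 genes thus separated the genotypes on every array, and the spread among the cat2 arrays was widest for AT1G53540.

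The list of small heat shock proteins held 18 genes, 10 of them with a probe set of their own. Of these 10, the 3 genes above rose, against 6.62% of all probe sets. The other 7 were not called and lay between −0.06 for ATHSP22.0 and 0.39 for AT5G37670, and the median of the list was 0.30 against −0.04 for all probe sets. Of 8 genes for HSP70, HSP90 and HSP100 chaperones and their helpers, 6 rose (75.0%, against 6.62% of all probe sets), with a median of 1.63. AT5G48570, which codes for the FK506-binding co-chaperone ROF2, gave 9.42, 8.59 and 8.47 in cat2 and 5.64, 5.02 and 5.06 in Col-0 (3.58 ± 0.40, adjusted p = 9.48e-07). Fes1A, which protects cytosolic HSP70 from degradation, gave 11.08, 10.98 and 10.40 in cat2 and 7.35, 7.36 and 7.55 in Col-0 (3.40 ± 0.17). Both genes were high on all cat2 arrays, with no overlap.

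Hop3, whose product passes client proteins from HSP70 to HSP90, read 7.18, 6.53 and 5.71 in cat2 and 3.62, 3.41 and 3.46 in Col-0, and rose by 2.98 ± 0.25. Its relative Hop2 rose by 0.76 ± 0.20, a call lost without cat2 replicate 1, Col-0 replicate 2 or Col-0 replicate 3 (adjusted p up to 0.0845), and Hop1 did not pass the test (0.42 ± 0.18), so the gain within this family of 3 was uneven. The DnaJ-type gene AT2G20560 rose by 2.36 ± 0.25. The HSP70 gene AT3G09440, already high in Col-0, gave 12.14, 12.20 and 12.01 in cat2 and 11.36, 11.18 and 11.08 in Col-0 and rose by 0.91 ± 0.12. Hsp70-2 was not called (0.36 ± 0.31). Among genes for chaperones of the endoplasmic reticulum AT5G07340, CRT1b and ATERDJ3B stood at −0.22, −0.32 and −0.48, and the count of called genes was 0 of 3 (limma, and also 0 at an unadjusted p under 0.05).

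**Figure D2:**
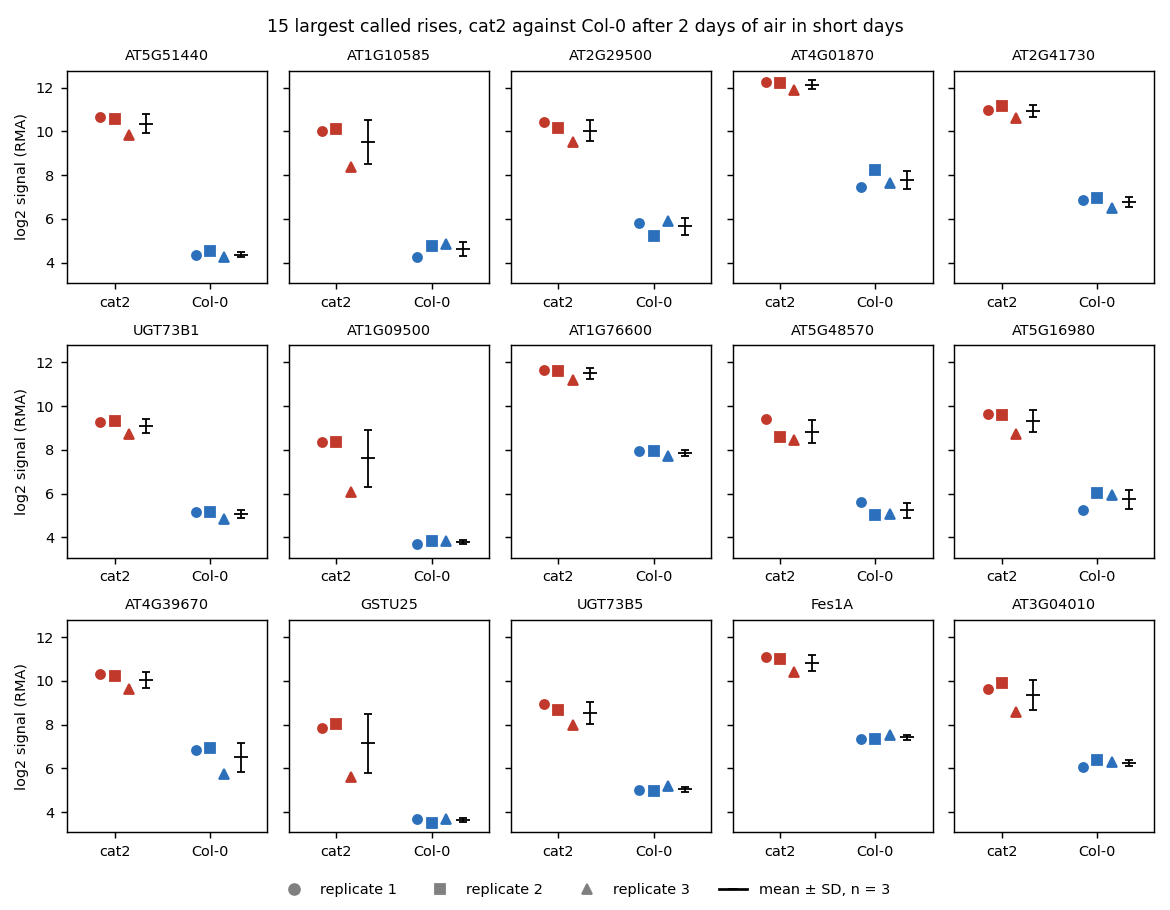
Log2 signal on each of the 3 cat2 arrays (left, red) and the 3 Col-0 arrays (right, blue) for the 15 largest called rises among probe sets with a single gene and no overlap between the groups, with the group mean and SD as black bars. The separation of the groups was thus a condition of the choice, and cat2 replicate 3 is the lowest of the cat2 arrays for all 15 genes.

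Enzymes that attach sugar or glutathione to small molecules made up another group of large rises. UGT73B1, a UDP-glycosyltransferase, gave 9.26, 9.31 and 8.75 in cat2 and 5.17, 5.15 and 4.85 in Col-0, a rise of 4.05 ± 0.17 (adjusted p = 3.71e-14). UGT73B5 gave 8.94, 8.67 and 7.98 in cat2 and 5.00, 4.96 and 5.18 in Col-0, a rise of 3.48 ± 0.30. The arrays of each genotype were close together for UGT73B1, with cat2 replicate 3 somewhat lower. Of 51 UDP-glycosyltransferase probe sets 12 rose (23.5%, against 6.62% of all probe sets) and 2 fell (3.92%, against 7.56%), and the median was −0.01. Of these 14 calls 9 held in every setting of the fit that tested them. The other large gains were UGT73C1 (2.76 ± 0.21), UGT74D1 (2.31 ± 0.18) and UGT73B4 (1.74 ± 0.25). UGT73B4 was uneven, with cat2 replicate 3 nearest to Col-0, at 6.48, 5.91 and 4.76 in cat2 and 4.05, 3.90 and 4.00 in Col-0.

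UGT76E11 (1.44), UGT87A2 (1.36), UGT76E12 (1.16) and UGT84A3 (1.08) rose as well, whereas UGT72B3 (−0.61) and UGT71B1 (−0.42) fell. UGT76E12 lost the call without cat2 replicate 1 (adjusted p = 0.072). UGT87A2 lost it without replicate 1 or 2 of cat2 or replicate 1 or 3 of Col-0 (adjusted p up to 0.0897), and UGT71B1 without any one cat2 array or Col-0 replicate 3 (adjusted p up to 0.118). Glutathione transferases of the tau class join glutathione to reactive compounds. GSTU25 read 7.85, 8.02 and 5.61 in cat2 and 3.67, 3.52 and 3.70 in Col-0, with cat2 replicate 3 well below the other cat2 arrays but above every Col-0 array (3.53 ± 0.43, adjusted p = 4e-06). GSTU22 rose by 1.06 ± 0.14 and GSTU16 by 0.76 ± 0.21, and GSTU16 was not called without replicate 1 or 2 of either genotype (adjusted p up to 0.108). The other 8 of the 11 tau class genes were not called and lay between −0.14 and 0.17, so the list median was 0.04. The rises were 27.3% of this list, against 6.62% of all probe sets.

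Genes used as markers of oxidative stress rose in 6 of 7 cases (85.7%, against 6.62% of all probe sets), with a median of 2.02. Apart from GSTU25, the transcription factor gene WRKY6 gave 9.12, 9.30 and 8.88 in cat2 and 6.54, 6.86 and 6.61 in Col-0, a rise of 2.43 ± 0.17. AT1G05340 rose by 2.21 ± 0.49 and AT1G19020 by 2.02 ± 0.41. STZ, the gene of a zinc finger repressor, was at 9.75, 9.85 and 10.06 in cat2 and 9.03, 8.41 and 7.92 in Col-0, a rise of 1.43 ± 0.33. For STZ the Col-0 arrays were the more variable ones. AT2G21640, known to be raised by oxidative stress and coding for a mitochondrial protein, rose by 1.31 ± 0.23, and AT1G57630 was not called (0.36 ± 0.61).

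Of 9 genes known to respond to mitochondrial dysfunction, 4 rose (44.4%, against 6.62% of all probe sets): AT5G51440, AT2G41730 (4.15 ± 0.21), AT2G21640 and AT2G32020 (0.82 ± 0.13). AT2G41730 gave 10.99, 11.18 and 10.62 in cat2 and 6.86, 6.97 and 6.51 in Col-0, well apart on every array, though its probe set is of a type that can bind related transcripts. NDB2, an alternative NADH dehydrogenase of the mitochondrial inner membrane, was not called (0.52 ± 0.24). Antioxidant enzymes remove peroxide and keep ascorbate and glutathione reduced. Of 8 such genes ATMDAR2, a monodehydroascorbate reductase, rose by 0.66 ± 0.17 and the glutathione reductase gene GR1 by 0.52 ± 0.15. SAPX, an ascorbate peroxidase of chloroplast and mitochondria, fell by 0.45 on the log2 scale. These 3 calls were 37.5% of the list, against 14.2% of all probe sets, and all 3 were lost when single arrays were left out. For ATMDAR2 this held for cat2 replicate 1 and Col-0 replicate 3 (adjusted p up to 0.0557), for GR1 for replicates 1 and 2 of both genotypes (adjusted p up to 0.147), and for SAPX for each of the 6 arrays (adjusted p up to 0.177).

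Among 6 photorespiration genes HPR, the peroxisomal hydroxypyruvate reductase, read 12.89, 12.86 and 12.87 in cat2 and 12.54, 12.51 and 12.37 in Col-0 and rose by 0.40 ± 0.11. It was not called without cat2 replicate 1 or Col-0 replicate 3 (adjusted p up to 0.0665). The other 5 lay between −0.13 and 0.11, and the called share of 16.7% was close to the 14.2% of all probe sets. The calcium sensor gene CML37 gave 6.89, 6.58 and 6.64 in cat2 and 4.46, 4.46 and 4.05 in Col-0 and rose by 2.38 ± 0.27. AT3G01830 (1.74 ± 0.57) and CML38 (1.49 ± 0.23) rose too, and AT2G41090, another of these 10 calmodulin-like genes, fell by 0.42 on the log2 scale. AT3G01830 lost the call without any one array other than Col-0 replicate 2 (adjusted p up to 0.179). AT1G04770, a gene of sulfur shortage, rose by 1.36 ± 0.24, as 1 of 3 measured genes (33.3%, against 6.62% of all probe sets). BGLU28, of the same 3 genes, gave 5.50, 5.71 and 4.06 in cat2 and 3.75, 3.74 and 3.78 in Col-0 and missed the threshold (adjusted p = 0.0723), with cat2 replicate 3 close to Col-0.

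All 3 measured genes of sugar starvation rose, where 6.62% of all probe sets did: AT3G15450 by 1.14 ± 0.22, and MCCA and IVD, both enzymes of leucine breakdown, by 0.84 ± 0.15 and 0.67 ± 0.21. IVD was not called without replicate 1 or 2 of either genotype (adjusted p up to 0.174). Of 7 WRKY factor genes WRKY6 rose and WRKY47 fell (−1.07 ± 0.33), 14.3% each way against 6.62% and 7.56% of all probe sets. WRKY53 differed by −0.10 ± 0.48, with groups that overlapped. WRKY47 lost the call without replicate 1 or 2 of cat2 or replicate 2 of Col-0 (adjusted p up to 0.196). Of 24 cytochromes P450, 2 rose (CYP71B22 by 0.74 and CYP71B26 by 0.69) and CYP84A4 fell (−0.35), and each of the 3 lost the call both without cat2 replicate 1 and without Col-0 replicate 2. Among 29 expansins and xyloglucan enzymes of the cell wall EXGT-A3 rose (0.86 ± 0.15) and EXPA18 fell (−0.36 ± 0.11), though EXPA18 was not called without cat2 replicate 1 or 3 or Col-0 replicate 2 or 3 (adjusted p up to 0.158). For both of these lists the share of called members was below the 14.2% of all probe sets. Of 3 antenna genes LHCB4.2 differed by 0.21 ± 0.07, a call (adjusted p = 0.0427) that was lost in 12 of 18 settings, among them those without any one array other than cat2 replicate 3.

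Markers with a single measured gene were not called. For FMA, a factor of guard cell formation, the difference was 0.23 ± 0.15, for the phloem sugar exporter SWEET11 it was 0.19 ± 0.14, and for the root hair expansin EXPA7 it was −0.05 ± 0.13. In whole leaf RNA, fewer cells of a type and less RNA per cell cannot be told apart. The defence marker PDF1.2 (−0.55), the glutaredoxin GRX480 (−0.18), the clock gene GI (0.31), the NAC014 factor (0.22) and the transporter AT5G52050 (−0.05), each the sole measured member of its list, were not called either. For anthocyanin synthesis 0 of 4 genes were called (limma, and 0 at an unadjusted p under 0.05). Its gene DFR ranged from 5.12 to 6.99 in cat2 and from 4.48 to 7.95 in Col-0, so that the difference of 0.19 ± 0.88 was far within the spread.

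**Figure D3:**
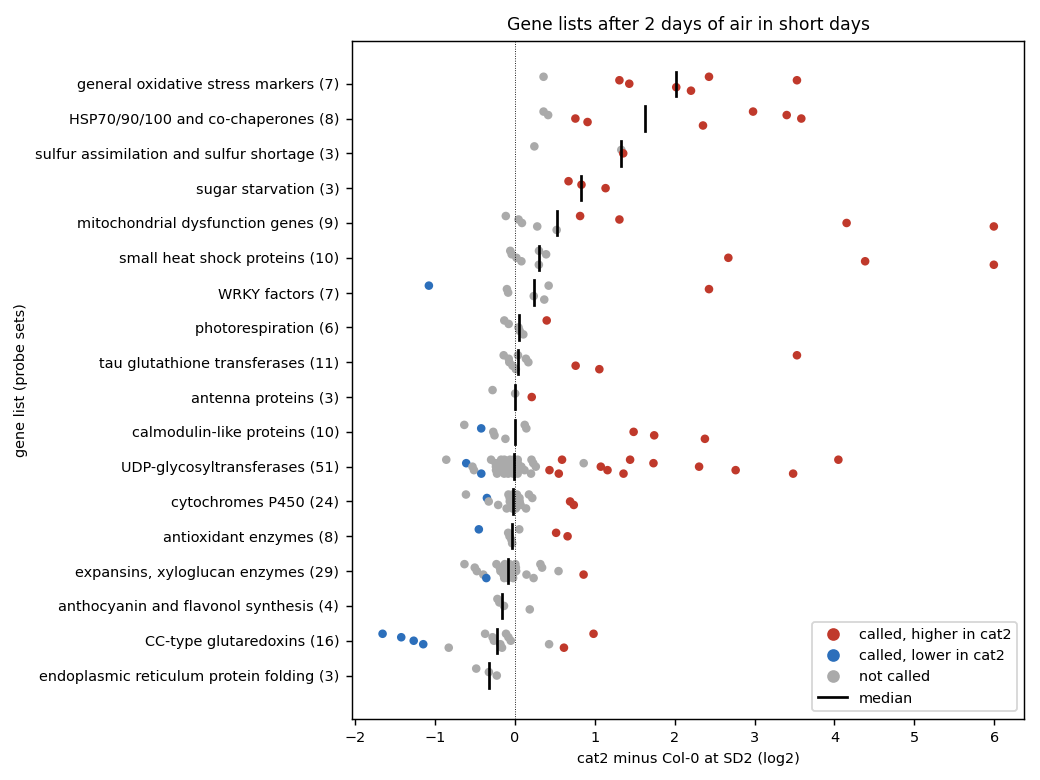
Difference between cat2 and Col-0 (log2, horizontal axis) for each probe set of the 18 gene lists with at least 3 measured probe sets, in red where called higher in cat2, in blue where called lower and in grey where not called, with the list median as a black bar. Chaperone helpers and oxidative stress markers have medians of 1.63 and 2.02, while the UDP-glycosyltransferases have 12 rises around a median of −0.01.

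The other genes with the largest rises included a bHLH transcription factor gene, AT1G10585, at 10.04, 10.13 and 8.39 in cat2 and 4.24, 4.74 and 4.85 in Col-0 (4.91 ± 0.40). AT4G01870, whose product resembles the bacterial TolB protein, was at 12.28, 12.23 and 11.89 in cat2 and 7.46, 8.22 and 7.65 in Col-0 (4.35 ± 0.34). AT1G09500, coding for an alcohol dehydrogenase-like protein, was at 8.37, 8.37 and 6.10 in cat2 and 3.68, 3.83 and 3.84 in Col-0 (3.83 ± 0.43). As for GSTU25, replicate 3 of cat2 stood well below the other cat2 arrays for AT1G10585 and AT1G09500. AT5G16980 codes for a zinc-binding dehydrogenase and stands beside near relatives in the genome, so its probe set may bind their transcripts. It rose by 3.57 ± 0.32.

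AT4G39670, a glycolipid transfer protein gene, gave 10.30, 10.22 and 9.62 in cat2 and 6.85, 6.95 and 5.75 in Col-0 (3.53 ± 0.44). AT1G76600 (3.63 ± 0.19) and AT3G04010, a glycosyl hydrolase gene (3.12 ± 0.28), completed the 15 largest rises. Probe sets outside the annotation rose further. The largest, 263231_at, read 10.58, 11.04 and 9.82 in cat2 and 3.72, 4.14 and 3.78 in Col-0 (6.60 ± 0.26), followed by 262518_at (6.19 ± 0.37). All 15 named rises were called in every alternative setting of the fit that tested them, single arrays left out included. There were 18 such settings for 13 of the genes and 17 for AT1G09500 and GSTU25, which a filter on dim probe sets removed.

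The falls were smaller. The largest with a single gene was AT5G52390, of the PAR1 protein family, at 5.50, 5.09 and 7.96 in cat2 and 8.14, 8.97 and 8.22 in Col-0. Replicate 3 of cat2 came within reach of the Col-0 arrays, and the difference was −2.27 ± 0.54 (adjusted p = 0.00628). It was −1.92 without cat2 replicate 1 (adjusted p = 0.0509) and −1.72 without cat2 replicate 2 (adjusted p = 0.0614), and then no longer called. Nor was it called with only the arrays compared in the fit (adjusted p = 0.0573). AT5G55420 (−1.59 ± 0.44) and AT3G60540, which codes for a beta subunit of the Sec61 translocon (−1.26 ± 0.34), showed the same high cat2 replicate 3, at 7.76 beside 6.96 and 6.03, and at 8.25 beside 7.53 and 7.08. Both lost the call when cat2 replicate 1, cat2 replicate 2 or Col-0 replicate 2 was left out (adjusted p of 0.0520, 0.121 and 0.0719, and of 0.0599, 0.0982 and 0.110).

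A cluster of neighbouring genes for CC-type glutaredoxins, small enzymes that act on glutathione-linked thiols, gave falls in which the cat2 arrays lay close together. AT4G15700 gave 6.22, 6.21 and 5.67 in cat2 and 7.24, 7.42 and 7.70 in Col-0 (−1.42 ± 0.24, adjusted p = 0.000241). AT4G15680 gave 6.95, 6.96 and 6.57 in cat2 and 8.02, 8.33 and 9.08 in Col-0 (−1.65 ± 0.37). AT4G15660 gave 6.58, 6.77 and 6.43 in cat2 and 7.63, 7.86 and 8.07 in Col-0 (−1.26 ± 0.24). Here cat2 replicate 3 was the lowest cat2 array, that is the farthest from Col-0, and the groups did not overlap. AT4G15690 also fell (−1.14 ± 0.25). These genes are near-identical copies, so how far their probe sets measure them apart is uncertain. Of the 16 measured genes in the list of CC-type glutaredoxins, these 4 fell, against 7.56% of all probe sets. In the same list 2 rose, against 6.62% of all probe sets: AT3G62950 (0.99 ± 0.18) and AT2G30540 (0.62 ± 0.18). The list may not hold every gene of this type, and its count leaves out AT5G11930, a glutaredoxin gene that also fell and is given below. AT2G30540 lost the call without any one array other than Col-0 replicate 1 (adjusted p up to 0.0901).

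**Figure D4:**
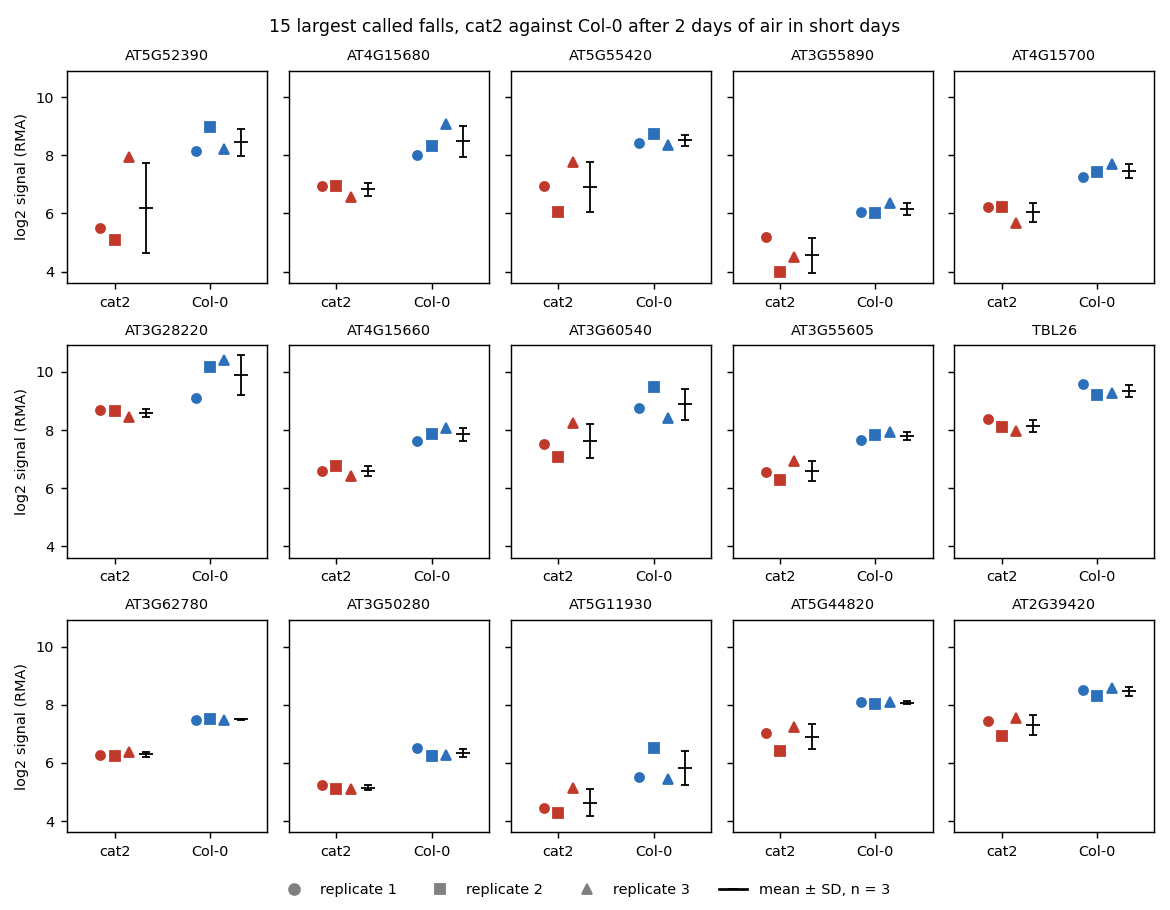
Log2 signal on each of the 3 cat2 arrays (left, red) and the 3 Col-0 arrays (right, blue) for the 15 largest called falls among probe sets with a single gene and no overlap between the groups, a condition of the choice, with the group mean and SD as black bars. For AT5G52390 and AT3G60540 cat2 replicate 3 comes close to the Col-0 arrays.

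AT3G55890, a gene for a Yippee-type zinc-binding protein, gave 5.20, 3.97 and 4.50 in cat2 and 6.04, 6.03 and 6.37 in Col-0 (−1.59 ± 0.38), and lost the call without cat2 replicate 2 (adjusted p = 0.0537). AT3G55605, of the mitochondrial glycoprotein family, gave 6.56, 6.27 and 6.93 in cat2 and 7.66, 7.84 and 7.92 in Col-0 (−1.22 ± 0.15, adjusted p = 3.55e-06). AT3G62780 varied little within groups, at 6.26, 6.23 and 6.39 in cat2 and 7.49, 7.51 and 7.48 in Col-0 (−1.20 ± 0.20). TBL26, whose family acetylates cell wall polysaccharides, and AT5G44820, of a nucleotide-sugar transferase family, fell by 1.20 and 1.18 on the log2 scale. AT3G55605, AT3G62780, TBL26 and AT5G44820 kept the call in all 18 settings.

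AT3G28220, which codes for a protein with a TRAF-like domain, fell (−1.30 ± 0.35), but not once Col-0 replicate 2 or 3 was left out (adjusted p of 0.0700 and 0.0783). The acyltransferase gene AT3G50280 (−1.20 ± 0.32), the glutaredoxin gene AT5G11930 (−1.19 ± 0.36) and the alpha/beta hydrolase gene AT2G39420 (−1.17 ± 0.33) completed the 15 largest falls. They were called in the fit of all arrays and lost the call when some single arrays were left out, with adjusted p up to 0.0538, 0.188 and 0.0988. Of the 15 falls, 7 kept the call in all 18 settings and 8 did not. Among unlisted probe sets 253174_at read 8.10, 8.19 and 7.85 in cat2 and 11.39, 11.47 and 11.43 in Col-0 (−3.39 ± 0.15), followed by 249890_at (−2.59 ± 0.46).

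The same genotypes were next compared before the move to air. At 3000 ppm CO2 the genotypes differed at 3 probe sets (0.0132%), 2 higher in cat2 (0.00879%) and 1 lower (0.0044%). Of the 15 rises 0 were called there by limma, with 1 higher and 1 lower at an unadjusted p under 0.05. For the 15 falls the count was also 0 by limma, with 6 lower and 0 higher at an unadjusted p under 0.05. AT5G51440 averaged 4.05 in cat2 and 4.17 in Col-0 at high CO2, and GSTU25 averaged 3.65 in cat2 and 3.54 in Col-0. The difference of the genotypes itself differed between 2 days of short-day air and high CO2 for 1366 probe sets (6.01%), 649 higher after air (2.85%) and 717 lower (3.15%), and for all 15 rises. Of the 15 falls it differed for 5. Both sets were chosen by their differences on the same day 2 arrays, so high counts were favoured by the choice and are no separate support. Of the other falls, AT3G55890 stood at −1.81 ± 0.38 at high CO2 and at −1.67, −1.83 and −1.90 in the other air groups, and AT5G11930 at −1.19 ± 0.36 at high CO2. AT5G52390, the largest fall with a single gene, stood at −1.30 ± 0.54 at high CO2. AT3G55920, a cyclophilin-type isomerase gene outside the 15 named rises, was already 4.04 higher in cat2 at high CO2 and 2.89 higher after 2 days of short-day air.

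After 4 days of air in short days 384 probe sets were called (1.69%), 347 up (1.53%) and 37 down (0.163%). Of the 1505 rises of day 2, 288 were called up again and 1125 had the same sign, while of the 1720 falls 23 were called down again and 1349 had the same sign. All 15 named rises were higher in cat2 on day 4 as well, from 0.66 for AT5G48570 to 4.73 for AT1G10585, and 13 were called. The test of the difference between the days called 78 probe sets (0.343%), 54 higher on day 2 and 24 lower. AT5G51440 averaged 10.36 in cat2 and 4.37 in Col-0 on day 2, and 9.08 in cat2 and 4.41 in Col-0 on day 4 (adjusted p = 0.0179 for the difference between the days). Fes1A (3.40 on day 2 and 2.05 on day 4, adjusted p = 0.0121), Hop3 (2.98 and 0.82, adjusted p = 0.00502) and AT5G48570 (3.58 and 0.66, adjusted p = 0.0193) were also less raised on day 4. The 15 rises and 15 falls were chosen by their differences on the same day 2 arrays. Smaller differences on day 4 were thus favoured by the choice and are no separate support.

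These tests depended on the setting. The call was lost in 7 of 24 settings for AT5G51440 (adjusted p up to 0.104), in 6 of 24 for Fes1A (up to 0.0981), in 2 of 23 for Hop3 (up to 0.104) and in 9 of 24 for AT5G48570 (up to 0.101). Single arrays whose omission ended it, for Fes1A, were cat2 replicates 1 and 2 of day 2 and replicate 2 of both genotypes of day 4, and the same arrays and Col-0 replicate 3 of day 2 did so for AT5G51440. For AT5G48570 it ended without any one of 7 of the 12 arrays. With only the arrays of the 2 days in the fit, 1 probe set in all was called and none of the genes named here. For UGT73B5 the differences were 3.48 on day 2 and 1.58 on day 4 (adjusted p = 0.0454), and the test lost the call in 15 of 24 settings, 9 of them with a single array left out. CML37 was at 2.38 on day 2 and −0.01 on day 4 (adjusted p = 0.00395, and 0.0546 with only the arrays of these days, the 1 setting of 23 that lost the call). By contrast UGT73B1 was at 4.05 and 4.00, AT1G09500 at 3.83 and 3.87 and UGT74D1 at 2.31 and 2.37, differences that the same test did not separate. AT4G15700, one of the glutaredoxin genes, was at −1.42 on day 2 and 0.28 on day 4 (adjusted p = 0.0199, with the call lost in 9 of 24 settings, 7 of them with a single array left out). Of the 8 genes of the HSP70, HSP90 and HSP100 list 6 rose on day 2 and 2 on day 4, against 6.62% and 1.53% of all probe sets. At an unadjusted p under 0.05 (limma) 7 were higher in cat2 on day 2 and 4 on day 4. The difference between the days was called for 3 of the 8 in the fit of all arrays, against 0.343% of all probe sets.

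**Figure D5:**
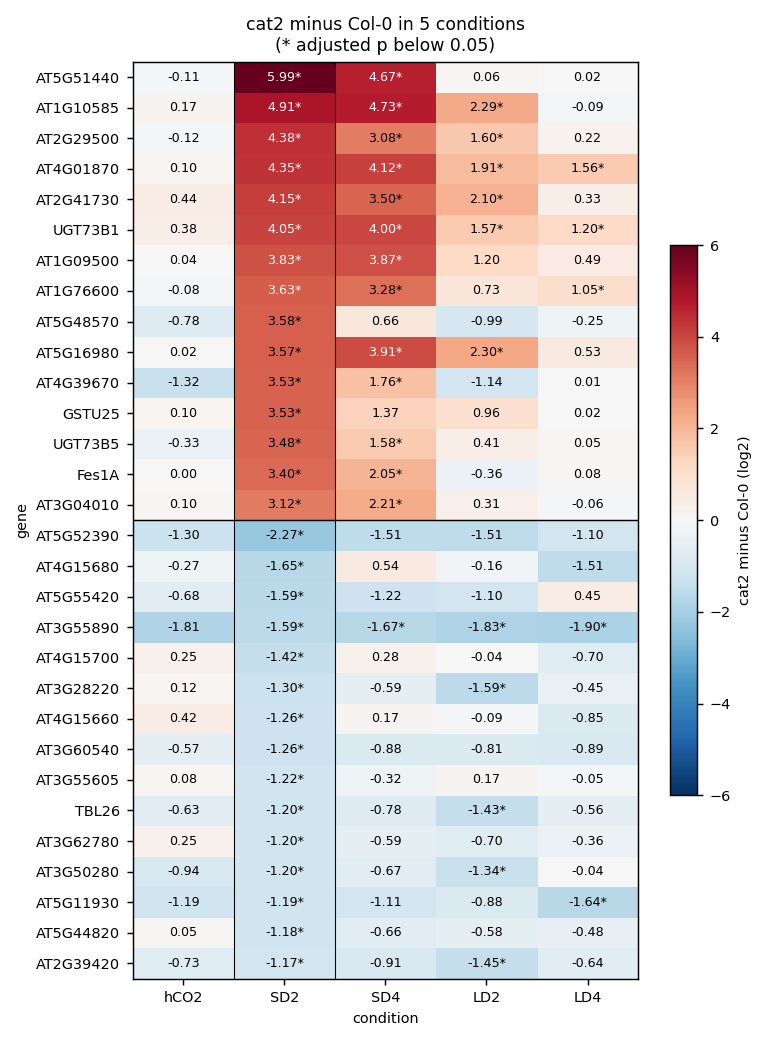
Difference between cat2 and Col-0 (log2, colour and number) in each of 5 conditions for the 15 largest rises (above the line) and falls (below it) of 2 days of air in short days, where hCO2 is 3000 ppm CO2, SD2 and SD4 are 2 and 4 days of air in short days, LD2 and LD4 are 2 and 4 days of air in long days, and an asterisk marks an adjusted p below 0.05. The rises lie between −1.32 and 0.44 at high CO2, peak at SD2 or SD4, and are called for 6 genes at LD2, while falls such as AT3G55890 have much the same value in every column.

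After 2 days of air in long days 261 probe sets were called (1.15%), and the genotype difference under short days differed from that under long days for 1755 probe sets (7.72%), 815 higher and 940 lower under short days. Of the 1505 rises, 60 were called up and 14 were called down in long days. The 15 named rises ranged from −1.14 for AT4G39670 to 2.30 for AT5G16980 in long days, 6 were called up, and 14 differed from short days, with AT5G16980 as the exception (adjusted p = 0.0977). The count of 14 was favoured by the choice of these genes on the same short-day arrays. AT5G51440 averaged 10.36 in cat2 and 4.37 in Col-0 under short days, and 4.32 in cat2 and 4.25 in Col-0 under long days (adjusted p = 1.71e-13 for the difference). Fes1A stood at −0.36 ± 0.17 in long days and AT5G48570 at −0.99 ± 0.40. In the HSP70, HSP90 and HSP100 list 2 of 8 genes fell in long days, AT3G09440 (−0.60) and Hsp70-2 (−1.54), against 0.607% of all probe sets. The difference between the day lengths was called for 7 of 8, against 7.72% of all probe sets. For Hop2 that call was lost in 7 of 24 settings.

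CML37 fell in long days (−1.37, adjusted p = 1.02e-06 for the difference between day lengths). Of the 51 UDP-glycosyltransferase probe sets 7 were more raised in short days than in long days, where 3.58% of all probe sets were higher under short days. In long days 2 of the 51 rose, against 0.541% of all probe sets. After 4 days in long days 165 probe sets were called (0.725%), and 3 of the 15 rises were among those called up: AT4G01870 (1.56 ± 0.34), UGT73B1 (1.20 ± 0.17) and AT1G76600 (1.05 ± 0.19). Of the 15 falls 5 were called down after 2 days of long days and 2 after 4 days. The unlisted 253174_at was lower in cat2 in every condition, at −3.94 at high CO2, −3.36 on day 4 of short days, and −4.01 and −4.29 in long days.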

How the data were processed

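RNA from rosette leaves was hybridised to Affymetrix ATH1 arrays, 1 per sample, in 10 groups of 3 arrays. The authors deposited log2 signals. The submitters' processing notes name RMA and affy, whose versions are not given in the sources used here. Control probe sets (64) were left out. Probe sets were named by the platform annotation (13513 with 1 gene, 503 with several, 8730 unlisted), and 13436 of the first were matched to RefSeq genes. Spread between arrays is the only error covered, and the number of arrays limits precision.

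A mean for each of 10 groups was fitted to all 30 arrays with limma 3.58.1 (R 4.3.3), with moderated tests of cat2 minus Col-0 in each condition and of differences between conditions, adjusted by Benjamini-Hochberg over 22746 probe sets. Named genes were, in each direction, the 15 largest called differences among probe sets with 1 gene and no overlap between the arrays, any member of the gene lists, and up to 2 unlisted probe sets in each direction. AT3G55920 was named after its values were seen. Members and lists were chosen with earlier results of these data known, and list counts are descriptions without a test. The day 2 comparison shares its arrays with each comparison between conditions.

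Alternatives were the replicate number as a block, a fit to the compared arrays alone, no probe sets with a mean log2 under 5, quantile normalization or median centring on top of RMA, trend and robust eBayes, weighted arrays, 3 technical covariates, 1 probe set per gene and single arrays left out. List counts under these settings, the settings for differences between conditions of named genes, and 11 further lists were added after the values were seen. Equal replicate numbers did not pair the arrays (residual correlations −0.08, −0.10 and −0.33). No arrays were identical. A planned count of promoter motifs was not run, as no promoter sequences were used here. On simulated data with 22746 probe sets the fit found 34, 43, 50 and 50 of 50 changes of 1.5, 2, 4 and 8-fold for cat2 against Col-0 at day 2 of short days, with 16 false calls. The simulated noise was normal and independent between probe sets, and far fewer probe sets were changed than the 3225 called here. These figures are therefore not the error rate of the real comparison. Lists were counted with pandas 2.3.3 in Python 3.11.15, and figures drawn with matplotlib 3.10.9.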

Additional observations from a re-analysis of the deposited data

Results flagged for a closer look

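The difference between cat2 and Col-0 after 2 days of air in short days was not the same as in other conditions, by limma with Benjamini-Hochberg on the difference of the differences. It differed from that at 3000 ppm CO2 for 1366 probe sets, from that after 4 days of short-day air for 78, and from that after 2 days of long-day air for 1755. Against 3000 ppm CO2 the gain of AT5G51440 was larger by 6.11 ± 0.25 (adjusted p = 8.74e-14), that of AT4G39670 by 4.85 ± 0.62 and that of AT1G10585 by 4.74 ± 0.57, while AT4G15660 (−1.69 ± 0.34) and AT4G15700 (−1.67 ± 0.34) moved down. Each of these 5 was called in all 24 settings. The genes named in this section were picked for large differences on the same day 2 arrays, so their calls are no separate support.

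Against day 4 of short days AT5G48570 was more raised by 2.92 ± 0.57 (adjusted p = 0.0193), UGT73B5 was more raised by 1.90 ± 0.42 (adjusted p = 0.0454) and AT4G15700 was lower by −1.70 ± 0.34 (adjusted p = 0.0199). These calls were lost in 9, 15 and 9 of 24 settings. Against day 2 of long days the gains of AT5G51440 (5.93 ± 0.25, adjusted p = 1.71e-13), AT4G39670 (4.67 ± 0.62) and AT5G48570 (4.58 ± 0.57) were larger, and AT3G55605 was lower (−1.39 ± 0.21). These 4 were called in all 24 settings.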

How the results depend on the processing

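The 3225 probe sets called for cat2 against Col-0 became 2041 with the BioB covariate, 1897 with the 25S covariate, 2098 with a replicate block and only the arrays compared, 419 with a difference of at least 1, and 1722 with 1 probe set per gene, where fewer were tested. With single arrays left out the counts were 1707 to 2864. They were lowest without cat2 replicate 1 (1707), cat2 replicate 2 (1812) and Col-0 replicate 2 (1878). In none of the 18 settings did a called probe set change sign. Equal replicate numbers did not pair the arrays. The replicate block in the fit of all arrays gave 3170 calls here and 1383, 66 and 1782 for the differences from 3000 ppm CO2, day 4 and long days.

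The 1366 calls for the difference from 3000 ppm CO2 became 6282 with array weights, 616 with BioB, 745 with the actin covariate, 723 with 1 probe set per gene, 435 with a difference of at least 1, and 834 to 2119 with single arrays left out. The 78 for the difference from day 4 became 1465 with array weights, 29 with 1 probe set per gene, 1 with only the arrays compared, 34 with the block and only these arrays, 46 with a difference of at least 1, and 19 to 166 with single arrays left out. The 1755 for long days became 2745 with array weights, 1036 with actin, 896 with 1 probe set per gene, 2796 with only the arrays compared, 3002 with the block and only these arrays, 576 with a difference of at least 1, and 939 to 1738 with single arrays left out. Array weights were estimated without reaching the set convergence, so their counts are uncertain. The cause of these shifts was not tested, apart from fewer tests or a stricter rule. Of the alternatives for named genes 577 kept the call and 29 lost it. For their differences between conditions 318 kept their side of the threshold, 33 lost the call and 8 gained it, and 408 list counts stayed within 1.5 times and 114 did not. Every rise named among the 15 largest kept its call.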

Other observations

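The gene groups below were listed after the values had been seen, so their counts describe these arrays only. Of 9 genes for enzymes that act on reactive carbonyls and aldehydes 7 rose in cat2 (77.8%, against 6.62% of all probe sets), and 3 of the 7 held in every setting that tested them. AER, an alkenal reductase that detoxifies products of lipid peroxidation, read 11.03, 11.19 and 10.77 in cat2 and 8.59, 8.84 and 8.78 in Col-0 (2.26 ± 0.14, adjusted p = 4.95e-11, limma with Benjamini-Hochberg). The aldehyde reductase gene AT3G04000 rose by 1.99 ± 0.23 and the aldehyde dehydrogenase gene ALDH7B4 by 1.40 ± 0.36, which was not called without cat2 replicate 1 or 2 or Col-0 replicate 2 (adjusted p up to 0.0793). AER and its neighbours AT5G16980, AT5G16990 and AT5G16960 are close relatives, so how far their probe sets measure them apart is uncertain. With other settings 3 to 7 of the 9 were called. Of 20 FAD-linked oxidases of the berberine bridge type 4 rose (20.0%, against 6.62% of all probe sets), led by AT4G20860 (2.87 ± 0.30), and 2 of the 4 were called in every setting that tested them. Their median was −0.02. Of 31 probe sets for MATE transporters 3 rose and 1 fell, a called share of 12.9% that was close to the 14.2% of all probe sets. The MATE gene AT1G33110 gave 9.51, 9.70 and 8.99 in cat2 and 6.37, 6.72 and 6.50 in Col-0 (2.87 ± 0.18). Of 3 genes of iron homeostasis the bHLH factors PYE (1.28 ± 0.22) and BHLH101 (1.22 ± 0.17) rose, 66.7% against 6.62% of all probe sets. ILR3 fell (−0.32 ± 0.09), 33.3% against 7.56%. The ILR3 call was lost without cat2 replicate 1 or 2 or Col-0 replicate 2 (adjusted p up to 0.152). In purine breakdown AAH, which acts on allantoate, rose by 1.80 ± 0.12 and ALN, which acts on allantoin, by 0.54 ± 0.18. These were 2 of 3 measured genes, 66.7% against 6.62% of all probe sets. The ALN call was lost without any one array other than Col-0 replicate 2 (adjusted p up to 0.149). In branched-chain amino acid breakdown 3 of 8 rose (MCCA, IVD and ALDH6B2), 37.5% against 6.62% of all probe sets, with 1 to 5 in other settings. Among 17 autophagy probe sets ATG8H (1.03 ± 0.15) and ATG3 (0.45) rose, 11.8% against 14.2% called over all probe sets. ATG3 was not called without cat2 replicate 1 or Col-0 replicate 2 (adjusted p up to 0.101).

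Groups that fell had small differences. Of 11 genes of the PRA1 family, which act in vesicle traffic, 5 fell (45.5%, against 7.56% of all probe sets). They were led by PRA1.E (−0.55 ± 0.15, not called without replicate 2 of either genotype). Of 12 subunits of nuclear RNA polymerases 5 fell (41.7%, against 7.56%), led by NRPB12 at 9.01, 8.97 and 9.18 in cat2 and 9.63, 9.72 and 9.66 in Col-0 (−0.62 ± 0.11). In both groups 2 to 6 were called in other settings, and 2 of the 5 calls held in every setting that tested them. Of 69 genes encoded in the chloroplast genome 9 rose and 2 fell, a called share of 15.9% that was close to the 14.2% of all probe sets. Of these rises 7 were among 15 genes for ribosomal proteins (46.7%, against 6.62% of all probe sets), and 0 of the 7 held in every setting. One of them, rpl22, gave 11.50, 11.40 and 11.33 in cat2 and 10.53, 9.70 and 10.99 in Col-0 (1.00 ± 0.25), with most of the spread in Col-0, and was not called without Col-0 replicate 2 (adjusted p = 0.0886). Their count was 1 to 7 in other settings, and 3 with either the 25S or the BioB control as a covariate, and the part of these controls in it was not tested.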
